A study of Ovis aries with 49 samples.

Results

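The SLC25 mitochondrial carrier family was represented by 29 of 10273 probe sets, namely every probe set with a single gene symbol that begins with SLC25A. Of these, 27 stood for carrier genes and 2 for antisense RNAs (SLC25A21-AS1 and SLC25A5-AS1), with 1 probe set per symbol. Their signals were read in total RNA of lamb adipose tissue on 49 arrays of the type Affymetrix Human Genome U133 Plus, made for human RNA. Lambs of Bluefaced Leicester cross Swaledale ewes were killed at 28 or 7 days of age, a twin at each age, and epicardial, omental, perirenal, sternal and subcutaneous fat was taken. Each depot and age formed a group of 5 arrays, except subcutaneous fat at 7 days with 4. The ages are those of the age field and the titles. A description text that all samples share gives an older age range, which conflicts with both, and a letter C in every title is unexplained. The labels name no allele and no drug for any group and do not give the diet of the mothers. Arrays are named here by letters (H to O at 28 days, A to G at 7 days) that stand for the numbers in the titles, and as those numbers are not defined as animals, a p-value here measures only how far these samples spread.

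The carriers sit in the inner mitochondrial membrane, where they exchange metabolites, nucleotides and cofactors between the matrix and the cytosol. The phosphate carrier and the ADP/ATP carriers supply ATP synthase with its substrates and export ATP, the citrate carrier feeds cytosolic fatty acid synthesis, and others move acylcarnitines, amino acids, iron, glutathione, NAD or coenzyme A. UCP1, the heat-producing protein of brown fat, is a member of the same family under another symbol, and fat of newborn lambs is known for losing its brown character after birth.

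Signals are GCRMA values on the log2 scale, on which a difference of 1 is a 2-fold change, and they ran from 2.49 to 14.04 over all probe sets. Of the 29 members, 6 averaged at least 4 in 1 or more of the 10 groups (SLC25A3, SLC25A4, SLC25A5, SLC25A33, SLC25A42 and SLC25A28), while 14 stayed below a group mean of 3 everywhere. Within 0.1 of the most common low value of the table (2.49) lay 37.6% of the members' values and 39.7% of all values, and poor pairing of sheep RNA with human probes cannot be told apart from low expression there. In 23 of the 29 members (79.3%, against 81.9% of all probe sets) at least 10 arrays held the very same value, such as 3.47 for SLC25A39 in 18 arrays, so that many arrays were not separated by these probe sets. SLC25A3, SLC25A4, SLC25A1, SLC25A28, SLC25A29 and SLC25A51 were the members without such a repeated value. As each probe set binds with its own strength, levels are compared here between arrays and not between genes.

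The labelled tissue was checked against marker genes. Of 15 listed adipocyte markers, 10 were measured and 2 averaged at least 4 in every group. These were the fatty acid translocase CD36 (8.61 to 9.97 between group means) and the triglyceride-forming enzyme DGAT2 (8.86 to 10.60), whereas the fatty acid binding protein FABP4 stayed between 2.59 and 2.80. Muscle transcripts differed between arrays. Muscle creatine kinase (CKM) was above 4 in all epicardial arrays except replicate I at 28 days, in sternal replicates J, N and O at 28 days and D at 7 days, and in subcutaneous replicates J and M at 28 days and A, E and G at 7 days. Over the 9 measured cardiac muscle markers, the summed log2 signal of an array ran from 24.5 to 69.1 in epicardial fat at 28 days and from 51.3 to 69.7 at 7 days, against 23.3 to 23.9 in perirenal and omental fat. It reached 47.4 in sternal fat at 28 days and 53.0 in subcutaneous fat at 7 days, within the epicardial range of the same age. In sternal fat at 7 days it reached 25.4, and in subcutaneous fat at 28 days 25.8. The heart troponin TNNI3 averaged at most 2.74 in the depots other than epicardial fat. MYH7, of the same list, reached 8.52 in sternal fat at 28 days and 8.70 in subcutaneous fat at 7 days. Over the 17 measured skeletal and shared striated muscle markers, the sum ran from 46.1 to 119 in sternal fat at 28 days and from 45.8 to 74.7 at 7 days. In subcutaneous fat it ran from 47.1 to 67.9 at 28 days and from 46.8 to 130.3 at 7 days. In such whole tissue, fewer cells of a type and less RNA per cell cannot be told apart.

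The first question was which carriers changed between 28 and 7 days of life within each depot. Tests used limma over all probe sets, and a member was called where the p adjusted by Benjamini-Hochberg did not exceed 0.05. In omental fat, 7 of the 29 members were called, all higher at 28 days, where 13.5% of all probe sets were called higher and 1.03% lower. In subcutaneous fat 1 member was called higher and 3 lower, beside 7.68% and 1.57% of all probe sets. In perirenal fat 1 was called higher and 2 lower, beside 6.23% and 3.09%. Epicardial fat had 2 called members, both lower, while 4.21% of all probe sets were called higher and 1.63% lower. In sternal fat the only called member was lower, while 2.47% of all probe sets were called higher and 3.89% lower. Quantile normalization moved the share of higher among all called probe sets to 51.3% in omental fat (92.9% as deposited), 50.5% in subcutaneous (83.1%), 53.2% in perirenal (66.9%) and 53.2% in epicardial fat (72.2%). The median difference of the 29 members was 0.06 in omental fat, beside 0.06 over all probe sets, and -0.04 in perirenal fat, beside 0.01.

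**Figure D1:**
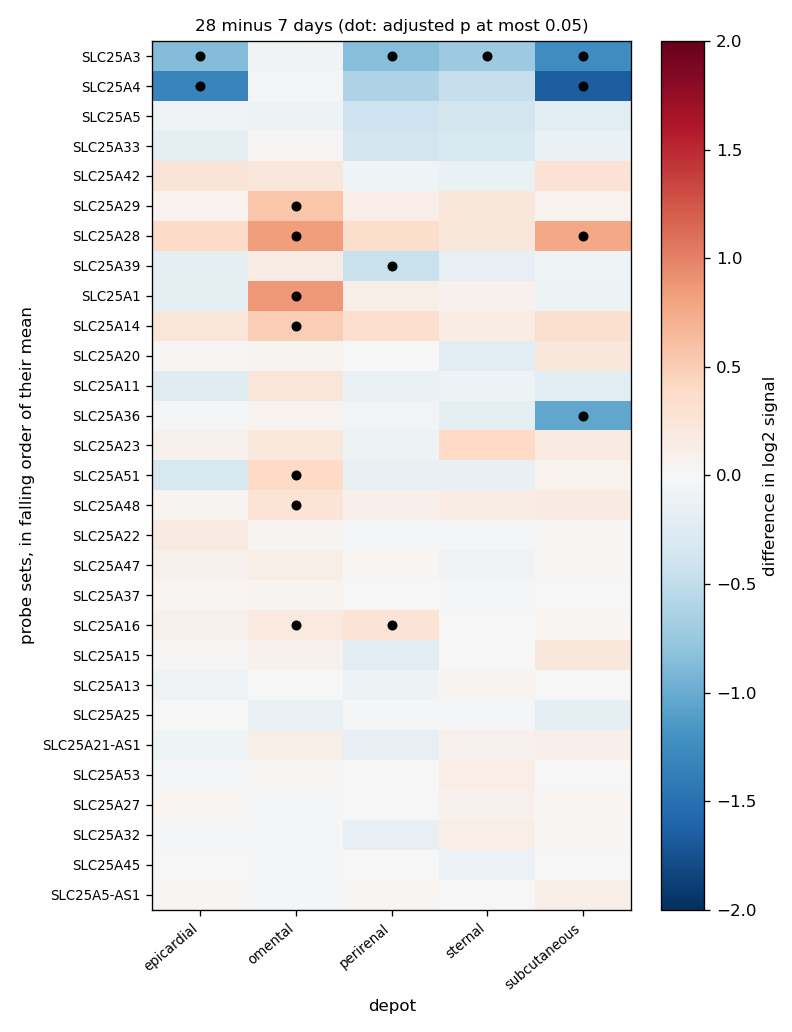
Difference in log2 signal, 28 minus 7 days, for the 29 SLC25A probe sets (rows, in falling order of their mean) in the 5 depots (columns), red for higher and blue for lower at 28 days, with a dot where the limma adjusted p was at most 0.05. SLC25A3 was lower in 4 depots, and omental fat held the 7 members called higher there.

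The second question was which carriers set a depot apart from the mean of the other 4 depots at the same age. At 28 days, sternal fat had 5 called members that were lower and 1 that was higher, where the calls over all probe sets were 18.4% lower and 1.65% higher. Omental fat had 2 higher members (4.76% of all probe sets higher), epicardial fat 1 higher member (2.74%) and subcutaneous fat 1 lower member (0.458%). In perirenal fat at 28 days limma called 0 members, with 4 at an unadjusted p under 0.05, where 3.36% of all probe sets were called. At 7 days, epicardial fat had 2 higher members (3.35% of all probe sets higher), omental fat 2 lower members (0.973% lower) and perirenal fat 2 higher members (4.58% higher). Sternal fat had 1 lower member at 7 days (0.925% lower) and subcutaneous fat 1 higher member (0.827% higher). The F test over all 5 depots called 5 members at 28 days, beside 20.0% of all probe sets, and 2 members at 7 days, beside 8.16%. After quantile normalization the share of higher among all called probe sets at 28 days was 62.9% in sternal (8.25% as deposited), 75.9% in omental (93%), 57.1% in epicardial (84.4%), 69.1% in subcutaneous (84.9%) and 75.2% in perirenal fat (85.5%). At 7 days it was 49.6% in epicardial (82.3%), 63.5% in omental (36.7%), 70.3% in perirenal (89.5%) and 59.8% in sternal fat (22.8%). The comparisons of an age share arrays, since each depot is in the mean the others are set against. Over all comparisons 14 members were called at least once and 15 were not. The same count was not made over all probe sets, so these numbers do not set the carriers apart from other genes.

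**Figure D2:**
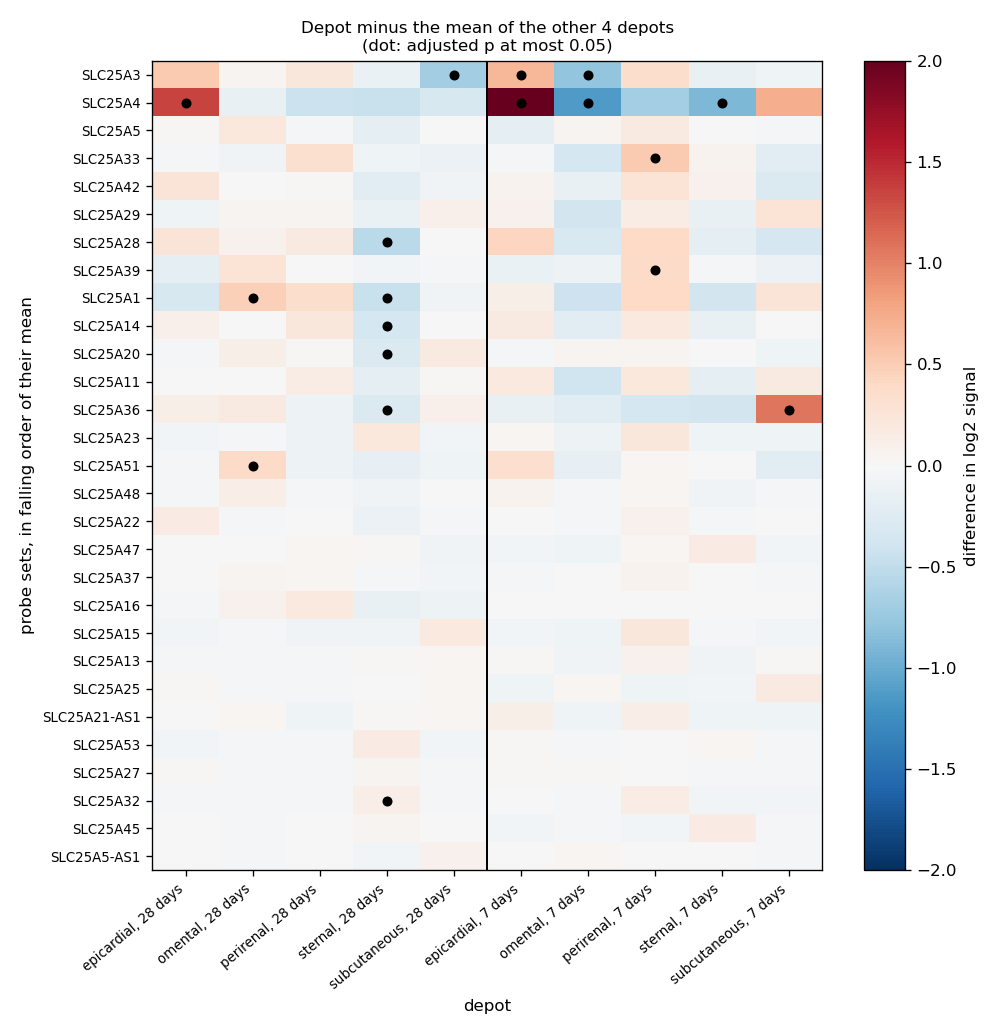
Difference in log2 signal between each depot and the mean of the other 4 depots for the 29 SLC25A probe sets (rows), at 28 days in the left 5 columns and at 7 days in the right 5 columns, with a dot where the limma adjusted p was at most 0.05. The strongest reds are SLC25A4 in epicardial fat at both ages, and the sternal column at 28 days holds 6 dots.

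SLC25A3 is the phosphate carrier, which brings inorganic phosphate into the matrix for ATP synthesis. It was lower at 28 than at 7 days in epicardial, perirenal, sternal and subcutaneous fat, and in omental fat the difference did not pass the test. In subcutaneous fat the arrays read 9.998, 9.06, 9.13, 9.59 and 9.50 at 28 days, against 10.91, 10.63, 10.54 and 10.71 at 7 days. The 2 ages did not overlap there, and the difference was -1.24 ± 0.20 (SE, n = 5 and 4, limma adjusted p = 7.71e-05). In perirenal fat the values were 10.28, 10.32, 10.14, 10.11 and 10.14 at 28 days, against 11.48, 10.93, 10.83, 11.07 and 10.90 at 7 days. Again no array of one age lay within the range of the other (-0.84 ± 0.19, n = 5 each, adjusted p = 0.00184).

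Epicardial fat gave SLC25A3 signals of 9.72, 10.77, 10.62, 10.07 and 10.98 at 28 days, against 10.89, 10.9998, 11.52, 11.36 and 11.72 at 7 days. Only replicate O at 28 days reached into the range of the younger arrays (-0.87 ± 0.19, adjusted p = 0.00257). The lowest older arrays, replicates I and N, also had the least CKM at that age (2.76 and 6.82). No alternative left out epicardial arrays for their CKM, and the part of muscle transcripts was not tested. In sternal fat the readings were 9.75, 10.45, 9.62, 9.66 and 10.06 at 28 days, against 10.63, 10.85, 10.52, 10.84 and 10.37 at 7 days. Replicate J at 28 days, an array of high CKM, was the one that overlapped, and the difference was -0.73 ± 0.19 (adjusted p = 0.0105). In omental fat the arrays read 9.98, 10.07, 10.12, 10.25 and 9.88 at 28 days, against 10.31, 9.83, 10.40, 10.37 and 9.73 at 7 days. The younger omental arrays lay on both sides of the older ones, and the difference was -0.07 ± 0.19 (adjusted p = 0.907).

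The 4 called falls of SLC25A3 held in each of the 49 fits that left out 1 array. Without the 9 sternal and subcutaneous arrays of CKM above 4, which leaves 1 subcutaneous array at 7 days, the subcutaneous difference was -1.02 (adjusted p = 0.106). With only the 2 groups compared in the fit, the adjusted p was 0.166 in epicardial and 0.0933 in sternal fat at the same differences.

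The change of SLC25A3 with age itself differed between the depots by the interaction F test (adjusted p = 0.0326), which called 3 members and 9.17% of all probe sets. That call was lost after quantile normalization (adjusted p = 0.0552), without the 9 arrays of CKM above 4 (adjusted p = 0.141), and in 8 of 49 fits that left out 1 array. These were omental replicates J, M and N at 28 days and C and G at 7 days, and subcutaneous replicates I and J at 28 days and A at 7 days, with an adjusted p of up to 0.0795.

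Between depots, SLC25A3 at 7 days was higher in epicardial fat (mean 11.30, against 10.63 over the other depots, a difference of 0.67 ± 0.13, adjusted p = 0.00347) and lower in omental fat (10.13 against 10.92, -0.79 ± 0.13, adjusted p = 0.00241). Its group means ran from 10.13 in omental through 10.64 in sternal, 10.70 in subcutaneous and 11.04 in perirenal to 11.30 in epicardial fat. Each pair of neighbours in this order had overlapping arrays, while omental fat overlapped neither perirenal nor epicardial fat. The epicardial arrays at 7 days had CKM of 8.06 to 11.63. No alternative left them out for it, and the part of muscle transcripts was not tested. At 28 days subcutaneous fat was lower (9.46 against 10.15, -0.69 ± 0.16, adjusted p = 0.0161). Without the arrays of CKM above 4 that difference was -0.57 (adjusted p = 0.210), without subcutaneous replicate I it was -0.60 (adjusted p = 0.0653), and without replicate J -0.61 (adjusted p = 0.0763). The F test over the depots at 28 days (adjusted p = 0.0115) was also lost without the arrays of CKM above 4 (adjusted p = 0.0631).

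**Figure D3:**
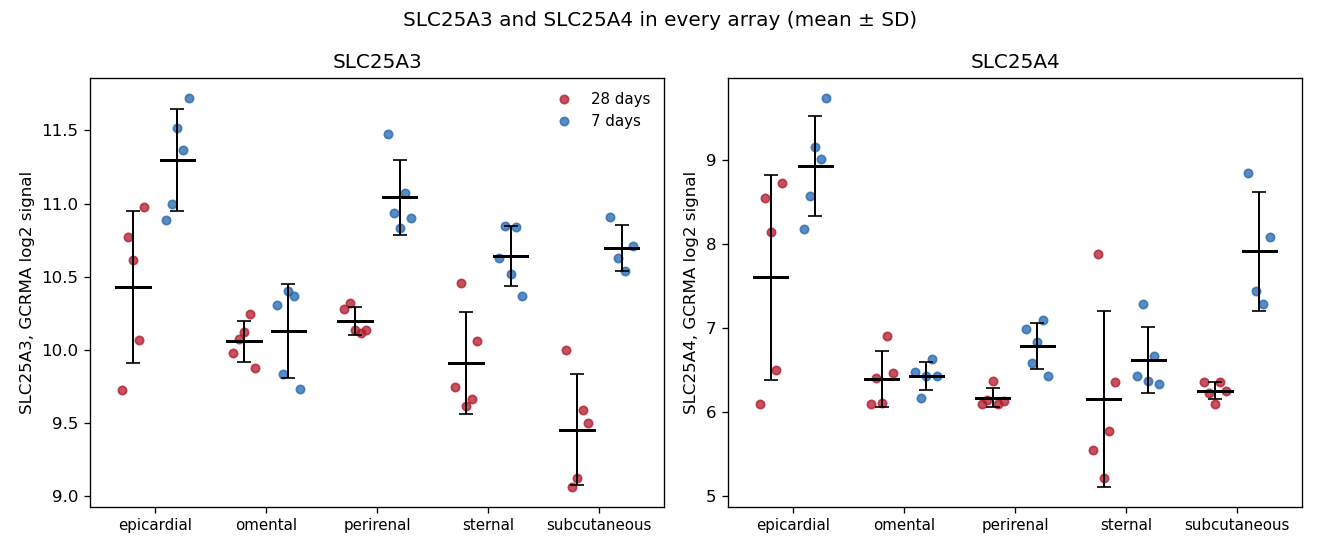
GCRMA log2 signal of SLC25A3 (left) and SLC25A4 (right) in every array, by depot, with 28 days (red) left of 7 days (blue) and black bars for the mean ± SD of 5 arrays (4 for subcutaneous fat at 7 days). The mean of SLC25A3 at 28 days differs from 7 days by -1.24 to -0.73 in every depot but omental, and SLC25A4 in epicardial fat at 28 days spreads between 6.10 and 8.72.

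SLC25A4 and SLC25A5 are ADP/ATP carriers, of which SLC25A4 is the isoform known for heart and skeletal muscle and SLC25A5 the one known for dividing cells. Their coding sequences are close relatives, and binding of one transcript to the probes of the other was not tested. SLC25A4 was higher in epicardial fat at both ages, set against the other depots, and lower in omental fat at 7 days. It was lower at 28 than at 7 days in epicardial and subcutaneous fat.

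In epicardial fat SLC25A4 read 6.10 (replicate I), 8.54 (J), 8.15 (L), 6.50 (N) and 8.72 (O) at 28 days, against 8.17 (A), 8.57 (C), 9.15 (D), 9.004 (E) and 9.73 (G) at 7 days. The older arrays fell into a low pair and a high trio. CKM in the same arrays was 2.76 (I), 8.75 (J), 8.99 (L), 6.82 (N) and 10.53 (O) at 28 days, against 8.06 (A), 9.27 (C), 11.17 (D), 10.91 (E) and 11.63 (G) at 7 days, and TNNI3 ran from 2.94 in replicate I to 11.29 in replicate O at 28 days. At each age the epicardial arrays with the least CKM were the ones with the least SLC25A4, and the part of muscle transcripts in these results was not tested.

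The fall with age in epicardial fat was -1.32 ± 0.38 (n = 5 each, adjusted p = 0.0248). Mesothelial markers moved with age in the same arrays, with sums over 4 measured markers of 13.6 to 15.1 at 28 days, against 10.5 to 13.4 at 7 days. Of the 4, 1 was called higher, WT1 at 1.79 ± 0.42 (adjusted p = 0.00485), as were 4.21% of all probe sets. The part of mesothelial cells was not tested. The SLC25A4 call was lost without replicate I at 28 days (-0.95, adjusted p = 0.15), replicate N at 28 days (-1.05, adjusted p = 0.128), or replicates D (-1.27, 0.0605), E (-1.31, 0.0510) or G (-1.12, 0.0985) at 7 days, and with only the 2 groups in the fit (adjusted p = 0.342). At 7 days SLC25A4 averaged 8.93 in epicardial fat, against 6.94 over the other depots (1.99 ± 0.22, adjusted p = 5.51e-06), and that call was kept under every alternative run and in all 24 fits without 1 array. No alternative left out epicardial arrays for their CKM (8.06 to 11.63 at 7 days), so these fits cannot tell the part of muscle transcripts. At 28 days the means were 7.60 in epicardial fat and 6.25 over the others (1.36 ± 0.35, adjusted p = 0.0324). Without epicardial replicate J the adjusted p was 0.127 (a difference of 1.12), without L 0.105 (1.22) and without O 0.149 (1.08), and with the replicate number as a block it was 0.189 (1.09).

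In subcutaneous fat SLC25A4 read 6.35 (H), 6.23 (I), 6.10 (J), 6.35 (M) and 6.25 (N) at 28 days, against 8.84 (A), 7.44 (E), 7.29 (F) and 8.08 (G) at 7 days. The ages did not overlap, and the difference was -1.65 ± 0.40 (adjusted p = 0.00559). CKM was 2.76, 2.997, 7.11, 4.11 and 2.73 in the same order at 28 days, against 12.95, 6.35, 2.77 and 11.71 at 7 days. Of the 17 skeletal and shared striated muscle markers, 9 were called lower at 28 days in this depot, beside 1.57% of all probe sets. Replicate F, the 7-day array with low CKM, was still above every 28-day array, and without the arrays of CKM above 4 the difference was -1.01 (adjusted p = 0.516) with that single array at 7 days.

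In sternal fat SLC25A4 read 5.55 (I), 7.88 (J), 5.22 (M), 5.78 (N) and 6.35 (O) at 28 days, against 6.43 (B), 7.29 (D), 6.37 (E), 6.67 (F) and 6.34 (G) at 7 days. Replicates J and O, with CKM of 12.72 and 11.32, were the highest at 28 days, and replicate D, with CKM of 8.29, was the highest at 7 days. The difference between the ages was -0.46 ± 0.38 (adjusted p = 0.655). Against the other depots at 7 days, sternal fat was lower (6.62 against 7.51, -0.89 ± 0.22, adjusted p = 0.0465), in a mean of the others that holds the epicardial arrays. That call was lost in 16 of the 24 fits without 1 array (-1.06 to -0.82, adjusted p up to 0.156), among them those without sternal replicate B, E, F or G, and after quantile normalization (-0.76, adjusted p = 0.0825).

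Perirenal fat gave SLC25A4 signals of 6.10, 6.15, 6.38, 6.10 and 6.13 at 28 days, against 6.99, 6.59, 6.84, 7.09 and 6.43 at 7 days. The ages did not overlap, yet the difference of -0.61 ± 0.38 did not pass the test (adjusted p = 0.414), although it was called with only the 2 groups in the fit. In omental fat the arrays read 6.10, 6.40, 6.10, 6.91 and 6.47 at 28 days, against 6.48, 6.17, 6.43, 6.63 and 6.43 at 7 days, and the difference was -0.03 ± 0.38 (adjusted p = 0.992). Both depots had CKM of at most 3.13 in every array. Omental fat was lower than the mean of the other depots at 7 days (6.43 against 7.56, -1.13 ± 0.22, adjusted p = 0.00783). That mean holds the epicardial and subcutaneous arrays, which averaged 8.93 and 7.91. The omental arrays (6.17 to 6.63) overlapped those of sternal (6.34 to 7.29) and perirenal fat (6.43 to 7.09). SLC25A5 ran between group means of 4.43 and 4.94 and was called in no comparison. Its change nearest the threshold was in perirenal fat, -0.41 ± 0.14 at 28 against 7 days (adjusted p = 0.0694). It was called there after quantile normalization, with the filter to a mean of at least 4, without the arrays of CKM above 4 and with only the 2 groups in the fit, and quantile normalization also called SLC25A5 lower at 28 days in omental fat and lower in epicardial fat than elsewhere at 7 days.

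**Figure D4:**
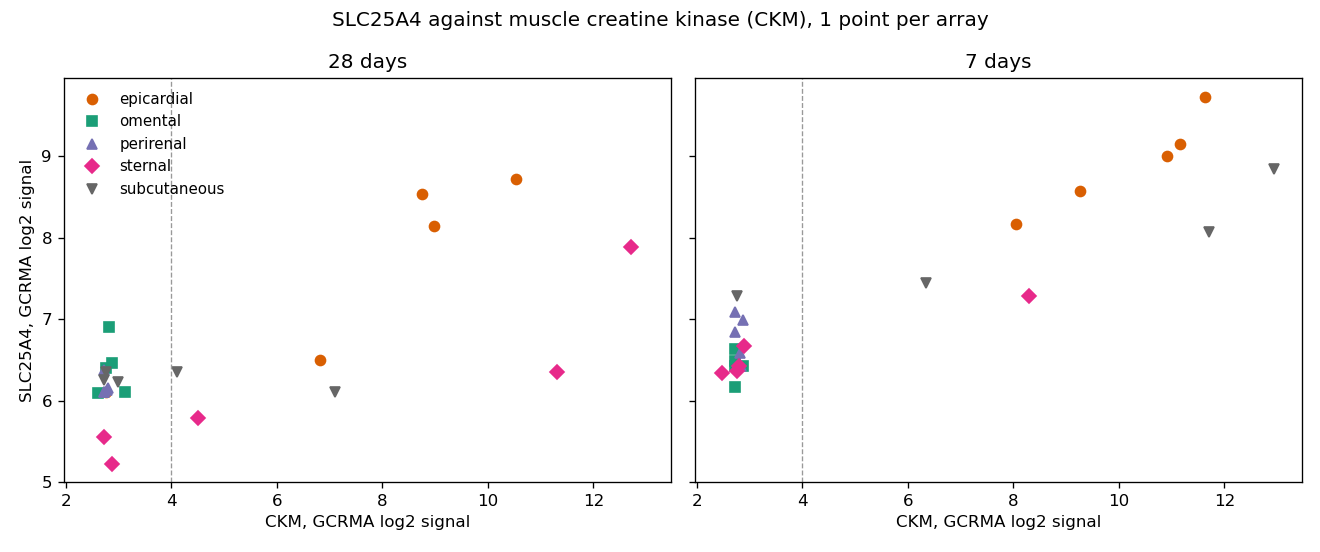
GCRMA log2 signal of SLC25A4 (vertical) against CKM (horizontal) in every array, at 28 days (left) and 7 days (right), with a symbol and colour per depot and a dashed line at a CKM of 4. Arrays with high CKM are epicardial, sternal and subcutaneous. At 28 days epicardial and sternal replicates O, with CKM of 10.53 and 11.32, have SLC25A4 of 8.72 and 6.35. Among the sternal arrays at 28 days SLC25A4 runs from 5.22 in replicate M (CKM of 2.88) to 7.88 in replicate J (12.72).

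Among the carriers of tricarboxylic and dicarboxylic acids, SLC25A1 exports citrate and SLC25A11 exchanges 2-oxoglutarate for malate. SLC25A1 was higher at 28 days in omental fat. The omental arrays read 4.01, 3.91, 3.65, 4.15 and 3.68 at 28 days, against 3.22, 3.01, 2.60, 3.63 and 2.60 at 7 days. Each older array lay above each younger one, by 0.87 ± 0.17 in the mean (n = 5 each, adjusted p = 0.000355), and the call was kept under every alternative that tested it, quantile normalization included. The other depots differed by between -0.19 and 0.12 between the ages, and the interaction F test for SLC25A1 gave an adjusted p of 0.0163 (0.0846 after quantile normalization, and 0.0505 without omental replicate G at 7 days).

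At 28 days SLC25A1 averaged 3.88 in omental fat, against 3.40 over the other depots (0.48 ± 0.12, adjusted p = 0.0244). The call was lost without omental replicate I (0.45, adjusted p = 0.0770), J (0.47, 0.0560) or N (0.41, 0.106), after quantile normalization (0.35, adjusted p = 0.128) and without the arrays of CKM above 4 (0.49, adjusted p = 0.0539). In sternal fat at 28 days it read 2.99, 3.01, 3.02, 3.41 and 3.26 and averaged 3.14, against 3.59 over the others (-0.45 ± 0.12, adjusted p = 0.0129). SLC25A11 ran between group means of 2.85 and 3.33 and was called in no comparison.

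The iron carriers SLC25A28 (mitoferrin-2) and SLC25A37 (mitoferrin-1, known from red cell precursors) and the glutathione carrier SLC25A39 form the next group. SLC25A28 was higher at 28 than at 7 days in omental and subcutaneous fat. In omental fat it read 4.19, 3.82, 3.89, 4.17 and 3.31 at 28 days, against 2.49, 3.21, 2.96, 3.24 and 3.31 at 7 days. The lowest older array (O) and the highest younger one (G) both rounded to 3.31, and the difference was 0.84 ± 0.19 (adjusted p = 0.00139). After quantile normalization it was 0.57 (adjusted p = 0.0502).

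In subcutaneous fat SLC25A28 read 4.19, 3.92, 3.31, 3.65 and 3.91 at 28 days, against 3.41, 2.96, 2.93 and 2.81 at 7 days. Replicate J at 28 days lay within the range of the younger arrays, and the difference was 0.77 ± 0.20 (adjusted p = 0.00934). That call was lost after quantile normalization (0.58, adjusted p = 0.0829), without the arrays of CKM above 4 (1.08, adjusted p = 0.0728) and with only the 2 groups in the fit (adjusted p = 0.108). The 4 macrophage markers summed to between 11.8 and 12.4 at 28 days in this depot, against 11.1 to 11.2 at 7 days. AIF1 was called higher, as were 7.68% of all probe sets, and the part of macrophages was not tested. No macrophage marker averaged 4 or more in subcutaneous fat at either age.

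Sternal fat gave close SLC25A28 readings of 3.42, 3.42, 3.32, 3.36 and 3.37 at 28 days, against 3.13, 2.75, 3.31, 3.58 and 2.96 at 7 days (0.23 ± 0.19, adjusted p = 0.651). Epicardial fat read 4.31, 3.64, 4.19, 3.92 and 4.03 at 28 days, against 3.67, 3.76, 3.12, 3.93 and 3.68 at 7 days (0.38 ± 0.19, adjusted p = 0.295). Perirenal fat read 3.66, 3.95, 4.57, 3.99 and 3.60 at 28 days, against 3.42, 3.80, 3.74, 3.89 and 3.17 at 7 days (0.35 ± 0.19, adjusted p = 0.317). Mean levels were higher at 28 days in all 5 depots, of which 3 did not pass the test. At 28 days sternal fat was lower than the other depots (3.38 against 3.91, -0.53 ± 0.14, adjusted p = 0.0112).

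SLC25A39 in perirenal fat read 3.47, 3.47, 3.47, 3.45 and 3.47 at 28 days, against 4.40, 3.79, 4.15, 3.79 and 3.47 at 7 days. All but 1 of the older arrays and replicate G of the younger ones stood at the repeated value of this probe set. The difference was -0.45 ± 0.11 (adjusted p = 0.00512), and 0.126 was the adjusted p with only the 2 groups in the fit. At 7 days perirenal fat was above the other depots (3.92 against 3.53, 0.39 ± 0.09, adjusted p = 0.0176). Without perirenal replicate A that difference was 0.27 (adjusted p = 0.0822), without C 0.33 (0.0673), without the arrays of CKM above 4 it was 0.39 (0.0545) and after quantile normalization 0.24 (0.249). SLC25A37 ran between 2.49 and 2.95, was within 0.1 of the lowest common value in 39 of 49 arrays, and was not called.

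The carriers of nucleotides, coenzyme A and other cofactors had 6 measured members of 10 listed. SLC25A33 and SLC25A36 carry pyrimidine nucleotides, SLC25A51 NAD, SLC25A32 FAD and folate, and SLC25A42 and SLC25A16 are tied to coenzyme A. SLC25A33 in perirenal fat read 5.14, 4.36, 4.36, 4.61 and 4.62 at 28 days, against 5.04, 4.73, 5.33, 4.89 and 4.90 at 7 days. At 7 days perirenal fat was above the other depots (4.98 against 4.45, 0.52 ± 0.14, adjusted p = 0.0340), and sternal replicate G (5.21) and epicardial replicate C (5.16) lay above every perirenal array of that age but replicate C. The call was lost without perirenal replicate A (0.51, adjusted p = 0.0889), C (0.44, 0.115), D (0.55, 0.0603) or G (0.54, 0.0552), without the arrays of CKM above 4 (0.52, 0.0824) and after quantile normalization (0.38, 0.193).

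SLC25A36 in subcutaneous fat read 3.07, 2.84, 3.13, 2.84 and 2.84 at 28 days, against 3.83 (A), 3.56 (E), 5.67 (F) and 2.84 (G) at 7 days. Replicate F, which had low CKM, stood far above, and replicate G was at the value that 19 arrays shared. The difference between the ages was -1.03 ± 0.25 (adjusted p = 0.00530), and without replicate F at 7 days it was -0.47 (adjusted p = 0.0549). Without the arrays of CKM above 4, replicate F is the only array at 7 days and the difference was -2.76, and the adjusted p was 0.352 with only the 2 groups in the fit. Against the other depots at 7 days the difference was 1.07 ± 0.27 (adjusted p = 0.0466), without replicate F it was 0.50 (adjusted p = 0.106), without the arrays of CKM above 4 it was 2.77 from that array alone, and the call was lost in 22 of the 24 fits without 1 array. In sternal fat at 28 days SLC25A36 read 2.72, 2.84, 2.62, 2.49 and 2.49 (2.63 against 2.92 over the other depots, -0.29 ± 0.09, adjusted p = 0.0188), a call lost without replicate N or O (-0.26 and adjusted p of up to 0.0686 in both).

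SLC25A51 was set apart in omental fat at 28 days, where it read 3.04, 3.24, 2.87, 3.38 and 2.82, against 2.59, 2.67, 2.67, 2.59 and 2.81 at 7 days. The ages met without overlap, as 2.82 in replicate O stood next to 2.81 in replicate G at 7 days, and the difference was 0.40 ± 0.13 (adjusted p = 0.0229). It was lost without omental replicate J (0.36, adjusted p = 0.0643) or N (0.33, 0.0920) at 28 days or E at 7 days (0.39, 0.0508), and after quantile normalization (0.27, 0.270). Against the other depots at 28 days the difference was 0.38 ± 0.06 (adjusted p = 0.000494), a call that every alternative able to test it kept, quantile normalization included. The interaction F test gave an adjusted p of 0.0332. That was lost after quantile normalization (0.205), without the arrays of CKM above 4 (0.0869), and without omental replicate J or N at 28 days or A, D or E at 7 days (up to 0.0820).

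SLC25A16 in perirenal fat read 2.87, 2.53, 2.73, 2.92 and 2.96 at 28 days, while all 5 arrays at 7 days stood at 2.53. The 9 thymus and lymphocyte markers summed to between 25.4 and 26.5 in the older perirenal arrays, against 24.4 to 25.3 in the younger ones. PTCRA was called higher, as were 6.23% of all probe sets, and the part of these cells was not tested. No marker of that list averaged 4 or more in perirenal fat at either age. The SLC25A16 difference was 0.27 ± 0.06 (adjusted p = 0.000535), and the adjusted p was 0.0614 with only the 2 groups in the fit. SLC25A16 was also higher at 28 days in omental fat (0.19 ± 0.06, adjusted p = 0.0125), a call lost after quantile normalization (0.14, adjusted p = 0.0920) and with only the 2 groups in the fit (adjusted p = 0.0538). In these 2 depots its 28-day means were 2.80 and 2.71, against 2.53 and 2.52 at 7 days, near the lowest signal of the table. The F test for SLC25A16 over the depots at 28 days (adjusted p = 0.0293) was lost without perirenal replicate I (0.0676), M (0.0740) or N (0.0743) or sternal replicate I (0.0531), after quantile normalization (0.0678) and without the arrays of CKM above 4 (0.209). SLC25A32 had an equally small rise in sternal fat at 28 days over the other depots (2.63 against 2.49, 0.14 ± 0.04, adjusted p = 0.0214), lost without replicate M (0.08, adjusted p = 0.112) or O (0.11, 0.0961). SLC25A42 ran between group means of 3.53 and 4.09 and was not called.

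Of 9 listed carriers of carnitine and of basic or other amino acids, 6 were measured. SLC25A29, a carrier of basic amino acids, was higher at 28 days in omental fat, where it read 3.57, 3.97, 3.78, 3.81 and 3.65, against 3.43, 2.74, 3.32, 3.09 and 3.40 at 7 days. Every older array lay above every younger one (0.56 ± 0.15, adjusted p = 0.00745), while the difference was 0.28 (adjusted p = 0.326) after quantile normalization. SLC25A48 was higher there as well (2.94 against 2.66, 0.27 ± 0.08, adjusted p = 0.0139), a call lost without omental replicate D at 7 days (0.24, adjusted p = 0.0547). SLC25A20, which exchanges acylcarnitines for carnitine ahead of fatty acid oxidation, read 3.09, 2.66, 2.80, 2.80 and 3.07 in sternal fat at 28 days and was lower than in the other depots (2.89 against 3.18, -0.30 ± 0.07, adjusted p = 0.00387). Its F test over the depots at 28 days gave an adjusted p of 0.0180, which was lost without sternal replicate J (0.0642), M (0.0539) or N (0.0557), after quantile normalization (0.453) and without the arrays of CKM above 4 (0.168). The ornithine carrier SLC25A15, SLC25A45 and SLC25A47 had highest arrays of 3.37, 3.39 and 3.52 and were not called, nor were the aspartate and glutamate carriers SLC25A13 (2.53 to 2.81) and SLC25A22 (2.49 to 3.07).

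SLC25A14, a carrier related in sequence to the uncoupling proteins, was higher at 28 days in omental fat (3.47 against 2.98, 0.49 ± 0.15, adjusted p = 0.0173). Its fitted difference fell to 0.43 without replicate I at 28 days (adjusted p = 0.0623), to 0.42 without E at 7 days (0.0633) and to 0.41 without G at 7 days (0.0690). In sternal fat at 28 days it was lower than in the other depots (3.18 against 3.53, -0.35 ± 0.11, adjusted p = 0.0322), a call lost without replicate J or O (-0.31, adjusted p of up to 0.102). Its relative SLC25A27 (2.49 to 2.85), the calcium-regulated ATP-Mg/phosphate carriers SLC25A23 (2.49 to 4.32) and SLC25A25 (2.49 to 3.03), SLC25A53 (2.50 to 3.39), and the antisense RNAs SLC25A21-AS1 (2.49 to 3.27) and SLC25A5-AS1 (2.49 to 2.88) were called in no comparison.

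The 5 sternal falls at 28 days (SLC25A1, SLC25A14, SLC25A20, SLC25A28 and SLC25A36) stood in a depot whose median difference over all probe sets was -0.07, with 24.1% of all probe sets above the other depots. The median of the members was -0.09, with 8 of 29 above. After quantile normalization it was 0.05, with 17 of 29 above and SLC25A32 as the only called member, so the direction of the members as a group turned with the scaling. None of the 5 falls was called without the arrays of CKM above 4 (adjusted p of 0.0618 to 0.443), which leaves 2 sternal arrays at that age, and their fitted differences lay between -0.60 and -0.25.

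**Figure D5:**
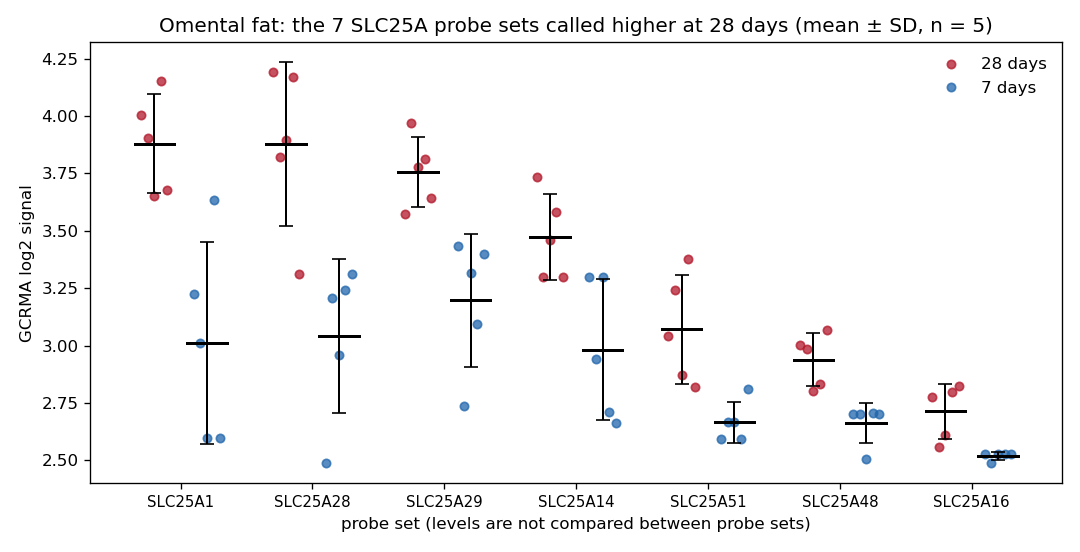
GCRMA log2 signal of the 7 SLC25A probe sets called higher at 28 days in omental fat, in every omental array, with 28 days (red) left of 7 days (blue) and black bars for the mean ± SD of 5 arrays. All 7 means are higher at 28 days, as their selection by this call requires.

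The 7 omental rises joined carriers of citrate, iron, basic amino acids, NAD and others. In this depot 70.4% of all probe sets had a positive difference, and 21 of the 29 members did. After quantile normalization 14 of 29 were positive, and 2 members were called, SLC25A1 as higher and SLC25A5 as lower. Leaving out the arrays of CKM above 4, none of which is omental, kept all 7. The mesothelium list, which covers cells that line omental fat, summed to between 13.7 and 16.5 log2 units per array over its 4 measured markers at 28 days and to between 11.7 and 14.8 at 7 days, and 0 of the 4 were called between the ages. Macrophage markers summed to between 12.1 and 12.9 over 4 measured genes at 28 days and to between 11.3 and 11.7 at 7 days, without overlap, and 2 were called higher, FCER1G (0.62 ± 0.15) and MSR1 (0.36 ± 0.09). Of the 10 adipocyte markers PPARG was called higher (0.31 ± 0.10) and LPL lower (-0.46 ± 0.15), and of 9 measured thymus and lymphocyte markers CD79B was called higher (0.46 ± 0.14). Over all probe sets 13.5% were called higher and 1.03% lower in this depot. No macrophage or lymphocyte marker averaged 4 or more in omental fat at either age. The part of these cells in the omental results was not tested.

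Genes that work with the carriers were counted over lists, beside the shares of all probe sets called lower at 28 days (1.63% in epicardial, 3.89% in sternal, 3.09% in perirenal, 1.57% in subcutaneous and 1.03% in omental fat), and whether a list differed from other genes was not tested. Of 16 measured subunits and regulators of ATP synthase, the enzyme that uses the phosphate and ADP brought in by SLC25A3 and SLC25A4, 10 were lower at 28 days in epicardial fat, 9 in sternal, 8 in perirenal, 7 in subcutaneous and 2 in omental fat, and none was called higher by limma. ATP5MG, a membrane subunit, fell by 1.43 ± 0.12 in sternal fat (adjusted p = 3e-11) and fell by 1.05 ± 0.12 in perirenal fat (adjusted p = 4.68e-08). The list's median difference was -0.53 in sternal, -0.48 in epicardial, -0.44 in perirenal, -0.35 in subcutaneous and -0.05 in omental fat. The omental difference of SLC25A3 was -0.07. At 7 days, against the other depots 4 subunits were higher in epicardial fat (3.35% of all probe sets higher), 4 in perirenal fat (4.58%), and 6 were lower in omental fat (0.973% lower).

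Of the 3 measured malate-aspartate shuttle enzymes, whose shuttle runs through SLC25A11 and SLC25A13, 3 were lower at 28 days in perirenal fat, 2 in subcutaneous and 1 each in epicardial and sternal fat, led by the cytosolic malate dehydrogenase MDH1 (-1.19 ± 0.19 in perirenal and -1.29 ± 0.19 in sternal fat). Of 8 measured genes of the citrate-pyruvate cycle and fatty acid synthesis, which draw on the citrate that SLC25A1 exports, 2 were higher in omental fat at 28 days than in the other depots (4.76% of all probe sets higher), the fatty acid synthase FASN (0.31 ± 0.08) and the desaturase SCD (1.32 ± 0.37). Between the ages in omental fat limma called none of these 8. Of 7 measured genes of haem synthesis and iron-sulphur assembly, which use the iron brought in by SLC25A28 and SLC25A37, 3 were lower in sternal fat at 28 days, where 18.4% of all probe sets were lower and the direction of calls turned with the scaling, among them the haem enzymes UROD (-0.76 ± 0.14) and ALAD (-0.36 ± 0.11). Of 8 measured parts of the machinery that imports carriers, 2 each were lower at 28 days in epicardial and perirenal fat and 1 each in sternal and subcutaneous fat.

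Among 10 measured family members under other symbols and outer membrane pores, 5 each were lower at 28 days in epicardial, sternal and subcutaneous fat and 4 in perirenal fat. UCP1 fell by 3.37 ± 0.36 in perirenal and fell by 1.56 ± 0.36 in sternal fat, and its depot mean of 6.29 in perirenal fat at 7 days was 2.57 ± 0.41 above the other depots. The pore VDAC2 fell by 1.00 ± 0.22 in perirenal and fell by 1.40 ± 0.22 in sternal fat. Of 11 measured regulators of mitochondrial biogenesis, 3 each were lower at 28 days in epicardial, perirenal and sternal fat and 1 in subcutaneous fat (PPARGC1B, -0.99 ± 0.27), while PPRC1 was higher in omental (0.59 ± 0.14) and ESRRB in subcutaneous fat (0.35 ± 0.11). The lower ones included the coactivator PPARGC1A at -2.44 ± 0.33 in perirenal and -3.06 ± 0.33 in sternal fat.

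The probe sets whose pattern was most like that of a member were ranked by Pearson's r over all 49 arrays, as a description. These arrays share depots, ages and muscle content. For SLC25A3 they were NDUFA12 (r = 0.937), ATP5F1B (0.924), IDH3B (0.914), COX5A (0.905) and MDH1 (0.892), which encode parts of respiratory complexes, ATP synthase and dehydrogenases. For SLC25A4 they were CKMT2 (0.914), a mitochondrial creatine kinase of striated muscle, ITGB1 (0.907), HHATL (0.904), a probe set with no symbol in the annotation and USP13. SLC25A28 had CAMTA2 (0.783) as its closest, followed by RAB24, PSME3IP1, RUFY1 and ZFC3H1.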

How the data were processed

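Per the labels and the study's methods, total RNA of each fat sample was hybridised to a human array, and the authors background-corrected, normalized and summarised the probes with GCRMA and affy (version not given in the sources used here). Values as deposited are on the log2 scale and were used as they stand for 49 arrays. Of 10273 probe sets, 9780 had 1 gene symbol in the platform annotation, 6 several and 487 none. The number of arrays limits the precision. No pair of arrays correlated above 0.9901, and none was taken as a repeat of another.

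Tests were run in R 4.3.3 with limma 3.58.1 (lmFit and eBayes; statmod 1.5.0 for correlated arrays), with Benjamini-Hochberg adjustment over all probe sets of a comparison. Depots were compared within each age in a fit of its own, against the mean of the other 4 depots or by an F test, and ages in 1 fit of all 10 groups, which also gave the interaction F test. The fits were tested on simulated data. Members were all probe sets of an SLC25A symbol. Values of every array were given for members that were called in an F test or a change with age and averaged at least 4 in 1 or more groups, and for other called members chosen after their values were seen. Members, marker lists and pathway lists were chosen with earlier results of these data known. Alternatives were the replicate number as a block, a filter on the mean over all arrays (4 or more), quantile normalization, a prior with trend and robust settings, leaving out sternal and subcutaneous arrays with CKM above 4, only the 2 groups compared, and leaving out each array in turn. Gene sequences were not analysed here.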

Additional observations from a re-analysis of the deposited data

Results flagged for a closer look

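Of 47 groups of arrays whose values are given above, 2 held an array set apart from the rest of its group by Dixon's test, where chance gives about 1 in 20. SLC25A4 in perirenal fat at 28 days was 6.38 in replicate K, against 6.10 to 6.15 in the other 4 arrays. SLC25A39 in perirenal fat at 28 days was 3.45 in replicate M, against 3.47 in the other 4 arrays, which held the repeated value of that probe set.

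The change between 28 and 7 days differed between the 5 depots for 3 members by limma's interaction F test. The adjusted p was 0.0163 for SLC25A1, 0.0326 for SLC25A3 and 0.0332 for SLC25A51.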

How the results depend on the processing

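Of 45 calls of single members, 11 held under every alternative that could test them and in every fit without 1 array. No call with a sign changed it, and the calls of the F and interaction tests have no sign. Quantile normalization ended 21 of the 45 calls, the loss of 1 array 20, and leaving out the arrays of CKM above 4 ended 17. The prior with trend and robust settings ended 0. The fit of only the 2 groups compared ended 9 and could test only the changes with age. Those calls numbered 2 in epicardial, 7 in omental, 3 in perirenal, 1 in sternal and 4 in subcutaneous fat. The causes were not tested. The filter to a mean of at least 4 leaves 4 members to test. Low signals that repeat between arrays limit most members.

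Called members numbered as follows where a count moved by over 1.5 times. The filter to a mean of at least 4 gave 0 in omental fat between the ages (7 without it), 2 in subcutaneous fat between the ages (4), 1 in the interaction (3), 0 in omental fat at 28 days (2), 0 in sternal fat at 28 days (6), 2 in epicardial fat at 28 days (1), 2 by the F test at 28 days (5) and 0 in subcutaneous fat at 7 days (1). Quantile normalization gave 2 in omental fat between the ages (7), 0 in the interaction (3), 1 in sternal (6), 1 in omental (2) and 2 in epicardial fat (1) at 28 days, and 0 in perirenal (2) and 0 in sternal fat (1) at 7 days. Leaving out the arrays of CKM above 4 gave 3 in sternal (1) and 2 in subcutaneous fat (4) between the ages, 1 in omental (2) and 0 in subcutaneous fat (1) at 28 days, and 2 in sternal (1), 2 in subcutaneous fat (1) and 4 by the F test (2) at 7 days. With only the 2 groups compared there were 0 in epicardial (2), 0 in sternal (1) and 2 in subcutaneous fat (4) between the ages.

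Without 1 array in turn, the called members between the ages numbered 1 to 3 in epicardial, 5 to 7 in omental, 3 to 4 in perirenal, 1 to 2 in sternal and 3 to 5 in subcutaneous fat, and 1 to 4 in the interaction. At 28 days they numbered 0 to 2 in epicardial, 1 to 2 in omental, 0 to 1 in perirenal, 5 to 7 in sternal and 0 to 1 in subcutaneous fat, and 4 to 7 by the F test. At 7 days they numbered 2 to 3 in epicardial, 2 to 2 in omental, 0 to 3 in perirenal, 0 to 1 in sternal and 0 to 1 in subcutaneous fat, and 2 to 4 by the F test.

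The replicate numbers recur across depots, and arrays that share one may come from 1 lamb. The methods describe the depots compared at an age as coming from the same animals. They name fewer animals for that set than the titles hold numbers at either age. Neither the labels nor the methods tie a number to an animal. Deviations from the group means had a median correlation of 0.0571 over 39 pairs of arrays with the same number at 28 days (12 over 0.1), against -0.00896 over 211 pairs with different numbers (12 over 0.1). At 7 days it was 0.0463 over 33 pairs (6 over 0.1), against -0.0108 over 197 pairs (15 over 0.1). Arrays of one number were thus somewhat more alike, but not in every pair. The depot p-values given above come from fits without the block, which treat arrays of one number as independent. If the numbers mark lambs, the blocked fits are the ones that allow for it. Twins were killed at different ages, and the labels do not pair them. The age and interaction fits, blocked or not, treat the arrays of twins as independent. With the replicate number as a block, 1 member was called in perirenal fat at 7 days (2 without it), 0 in sternal (1) and 0 in subcutaneous fat (1). The block ended 6 of the 45 calls, those of SLC25A4 in epicardial fat at 28 days (1.09, adjusted p = 0.189), where SLC25A22 was called instead, SLC25A14 (-0.32, 0.0707) and SLC25A32 (0.13, 0.0603) in sternal fat at 28 days, and SLC25A33 in perirenal (0.49, 0.0700), SLC25A4 in sternal (-0.82, 0.205) and SLC25A36 in subcutaneous fat (0.83, 0.169) at 7 days.

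Over all probe sets, calls moved by over 1.5 times as follows. Quantile normalization gave 955 in sternal (2061 as deposited) and 294 in omental fat (526) and 1310 by the F test (2051) at 28 days, 273 in perirenal fat at 7 days (525), 768 in omental (1497) and 493 in subcutaneous fat (950) between the ages, and 539 in the interaction (942). The filter, with 1752 probe sets tested, gave 1062 in sternal, 313 in omental and 219 in perirenal fat (345) and 1168 by the F test at 28 days, 285 in perirenal, 243 in omental (158) and 195 in sternal fat (123) at 7 days, and 696 in omental, 609 in perirenal (957) and 559 in subcutaneous fat between the ages. Leaving out the arrays of CKM above 4 gave 1008 in sternal, 200 in perirenal and 161 in subcutaneous fat (312) and 1165 by the F test at 28 days, 338 in subcutaneous fat at 7 days (157), and 397 in subcutaneous fat between the ages. The block gave 219 in epicardial (333), 170 in perirenal and 152 in subcutaneous fat at 28 days and 64 in sternal fat at 7 days. With only the 2 groups compared there were 922 in omental, 215 in epicardial (600), 161 in sternal (654) and 110 in subcutaneous fat.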
